A study of Drosophila melanogaster with 4 samples.

Results

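The genes described here supply and receive the blood lipids of the Drosophila melanogaster larva. They are apolpp, Apoltp and Mtp on the carrier side and the receptor genes LpR1 and LpR2, 5 of the 15222 gene features counted, and they were chosen by name. RNA-seq counts came from wing imaginal discs, the larval epithelia that form the adult wing and notum, taken by hand from wandering larvae at the third larval instar. The wtsP2 group held 2 libraries of total RNA from yw larvae with genotype wtsP2, an allele of warts (wts), and the wild-type (WT) group held 2 libraries from yw larvae labelled wildtype. Warts is a kinase of the Hippo pathway and holds back the growth coactivator Yorkie. The labels say neither how many larvae went into a library nor whether replicates were raised apart, so p-values measure the spread between these libraries, which may be technical.

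Insects move lipid through the haemolymph on lipophorin, a particle built on the apolipophorin protein that apolpp encodes. The lipid transfer particle, built on the Apoltp product, loads lipophorin with fat from the gut and exchanges lipid between lipophorin and tissues. The Mtp product, a microsomal transfer protein, lipidates both carriers while they are made in the endoplasmic reticulum of the fat body, the larval storage organ. Imaginal discs do not make their own supply of lipophorin but take up its neutral lipid through LpR1 and LpR2, receptors of the LDL receptor family. In the wing disc lipophorin is also known as a vehicle for the lipid-linked morphogens Wingless and Hedgehog.

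The libraries differed in depth and in likeness. Their counts summed to 3520970 and 3846682 in wtsP2 and to 2112468 and 696952 in WT. Over the 7278 genes that passed the filter on low counts, the wtsP2 libraries had a Pearson r of 0.867 with each other and the WT libraries one of 0.564, on log2 CPM (counts per library size), where genes are not independent of each other. Between the groups, WT replicate 1 had an r of 0.659 and 0.656 with wtsP2 replicates 1 and 2, and WT replicate 2 one of 0.574 and 0.576. Each WT library was thus less like the other WT library than like either wtsP2 library. Of the tested genes 2.39% and 1.40% were at 0 in wtsP2 replicates 1 and 2, against 9.21% and 33.0% in WT replicates 1 and 2. The wts gene itself had 48 and 24 counts in wtsP2 and 46 and 0 in WT (log2 fold change -0.15 ± 2.36, SE, edgeR adjusted p = 0.999), which is too imprecise to check the labels. All 10 wing disc marker genes on a fixed list were counted, with sums of 2358 and 2375 CPM in wtsP2 and 2196 and 2123 CPM in WT, and the 1 value of 0 among them was that of pnr in WT replicate 2. Of the 10, 0 passed in edgeR over all genes, and 0 in DESeq2 or limma-voom. At an unadjusted p under 0.05, 2 of the 10 were higher, against 9.91% of all tested genes. The median log2 fold change of the 10 was 0.07 (0.30 without WT replicate 1, -0.11 without WT replicate 2 and -0.10 without wtsP2 replicate 1). Among them rn was at 1.87 ± 0.42, wg at 1.81 ± 0.45, vg at -0.96 ± 0.42 and the most abundant, nub, at 0.67 ± 0.35.

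Both wtsP2 libraries lay below both WT libraries for apolpp and Apoltp and above them for LpR1 and LpR2, while the groups overlapped for Mtp, and none of these differences passed the test in edgeR. CPM values were computed on library totals scaled by TMM, edgeR's trimmed mean of M-values. apolpp averaged 91.2 ± 67.8 CPM in wtsP2 and 1109 ± 334 CPM in WT (SD, n = 2 each), and Apoltp averaged 2.51 ± 3.55 CPM in wtsP2 and 35.0 ± 6.13 CPM in WT. LpR2 averaged 137 ± 3.29 CPM in wtsP2 and 58.4 ± 15.9 CPM in WT, and LpR1 63.3 ± 18.5 CPM in wtsP2 and 34.2 ± 3.59 CPM in WT. Mtp averaged 66.7 ± 1.88 CPM in wtsP2 and 64.1 ± 46.6 CPM in WT. Among the 5 members, 2 thus had both wtsP2 libraries above both WT libraries, as did 32.3% of all tested genes, and 2 had both below, as did 15.1% of all tested genes. In either direction that is 4 of 5 members, against 47.4%. Of the members, 0 of 5 had an edgeR adjusted p under 0.05 over all tested genes, where 0 of 7278 genes (0% higher and 0% lower in wtsP2) did and the smallest adjusted p was 0.142. At an unadjusted p under 0.05, 1 member, apolpp, was lower in wtsP2, as were 2.65% of all tested genes, and none was higher, against 9.91% of all tested genes. DESeq2, which called 1.3% of genes higher and 1.17% lower, and limma-voom, which called 1.69% higher and 0.371% lower, each called 1 of the 5 members, apolpp, as lower and none as higher. In bulk discs, fewer cells of a type and less RNA per cell cannot be told apart.

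**Figure D1:**
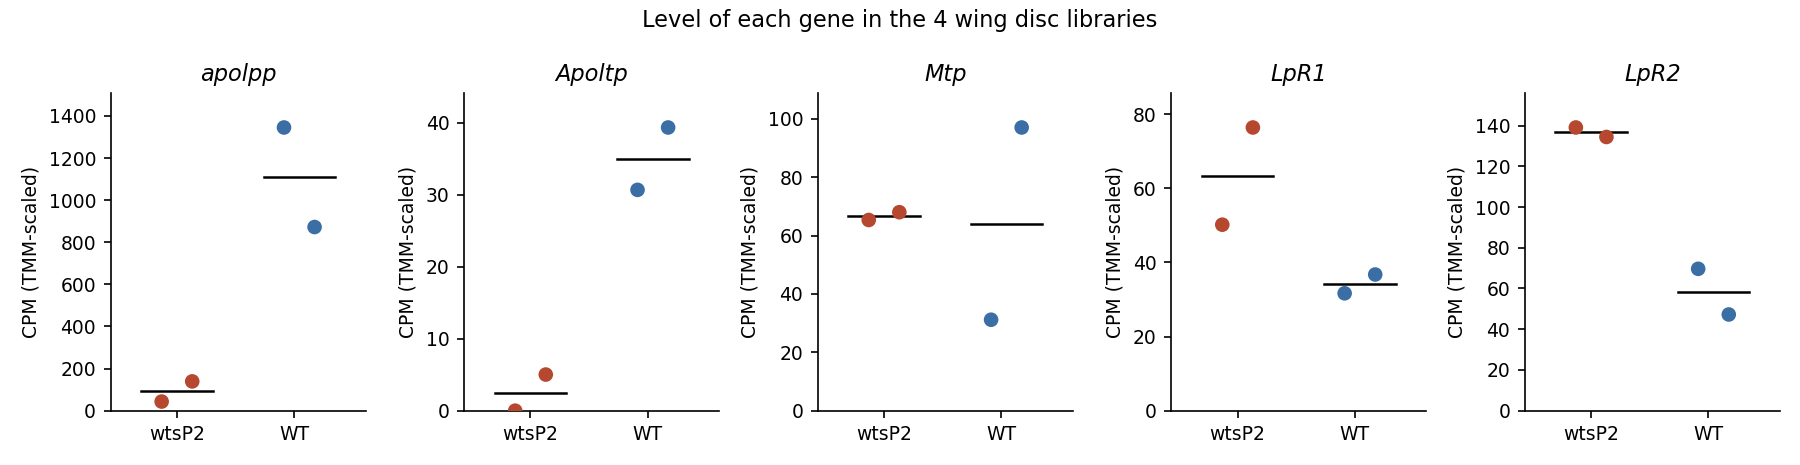
Level of each of the 5 genes in each library, in CPM on TMM-scaled totals, with an axis of its own that starts at 0 for each gene; red points are the 2 wtsP2 libraries, blue points the 2 WT libraries, and lines the group means. The wtsP2 points lie below the WT points for apolpp and Apoltp and above them for LpR1 and LpR2, while for Mtp the wtsP2 points (65.4 and 68.0 CPM) lie between the WT points (31.2 and 97.1 CPM).

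The gene for the lipophorin scaffold, apolpp (FBgn0087002; chromosome 4, 1085538 to 1096830, plus strand, in the BDGP5 coordinates of the count files; 8 exons), had 151 and 499 counts in wtsP2 and 2762 and 665 counts in WT. That is 43.3 and 139 CPM in wtsP2 and 1345 and 872 CPM in WT. The groups did not overlap. The SD was larger in WT (67.8 CPM in wtsP2, 334 CPM in WT), where the mean was higher too. Relative to the means (91.2 CPM in wtsP2, 1109 CPM in WT), the spread was larger in wtsP2. This put the log2 fold change at -3.60 ± 0.70 (SE; edgeR adjusted p = 0.368), a level 12.2-fold lower in wtsP2. At about the same size the difference passed in DESeq2 (-3.67, adjusted p = 1.83e-05), in limma-voom (-3.83, adjusted p = 0.0380) and in edgeR with no filter on low counts (-3.59, adjusted p = 0.0136, where 0.224% of genes were called higher and 0.171% lower). It also passed in edgeR without wtsP2 replicate 2 (-4.67, adjusted p = 0.000649, 0.0386% of genes called higher and 0.193% lower), without WT replicate 1 (-3.25, adjusted p = 0.0255, 8.53% called lower) and without WT replicate 2 (-3.84, adjusted p = 0.00172, 5.67% called lower). It did not pass without wtsP2 replicate 1 (-2.96, adjusted p = 0.136). In each of these fits the lone library of a group is assumed to vary as the other group does. With the replicate number as a block it passed as well (-3.80, adjusted p = 3.24e-08, 0.522% called lower), although the labels do not say that same numbers mark pairs.

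By deposited RPKM (reads scaled to gene length and library size), the scale on which genes of different length can be compared, apolpp was at 4.23 and 12.8 RPKM in wtsP2 and at 129 and 94.1 RPKM in WT. In the wtsP2 libraries this level exceeded that of 9.34% and 30.2% of tested genes, and in the WT libraries that of 89.4% and 86.3%. More than 10 reads fell in 3 and 4 of its 8 exons in the wtsP2 libraries and in 6 and 4 in the WT libraries, as deposited. These exon counts depend on depth as well as on level, and they do not show how evenly reads lay over the gene. apolpp is 10273 bases long, in the longest of 10 length classes of tested genes, whose median log2 fold change was 0.72 against 0.24 for all tested genes, so its difference ran against that of genes of its length.

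The gene for the lipid transfer particle, Apoltp (FBgn0032136; chromosome 2L, 9634201 to 9656026, plus strand; 20 exons, 13288 bases), was counted at a far lower level. It had 0 and 18 counts in wtsP2 and 63 and 30 counts in WT, or 0 and 5.02 CPM in wtsP2 and 30.7 and 39.4 CPM in WT. The groups did not overlap, but the fitted log2 fold change of -3.77 ± 2.67 (SE; edgeR adjusted p = 0.771) carried a wide error and did not pass. Its size depended on the fit, at -5.29 in limma-voom, -5.42 with the replicate block and -2.76 without wtsP2 replicate 1. Without wtsP2 replicate 2 it was -9.20, a fitted value with no wtsP2 counts left and so no bound. A count of 0 in wtsP2 replicate 1 allows up to 3 counts, or 0.860 CPM, at which Apoltp would be at least 40.7-fold lower there than the WT mean. Such limits cover counting error only, and zeros were common at this level: of 612 tested genes with 10 to 30 counts in wtsP2 replicate 2, 13.2% had none in replicate 1. Set against apolpp in the same library, Apoltp counts came to 0% (at most 1.99% from 3 counts) and 3.61% of apolpp counts in wtsP2 and to 2.28% and 4.51% in WT, so the groups overlapped on this ratio.

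The lipid-loading gene Mtp (FBgn0032904 in the count files, tied to its symbol through its transcript identifier; chromosome 2L, 20919094 to 20922850, minus strand; 6 exons, 2898 bases) overlapped between the groups. It had 228 and 244 counts in wtsP2 and 64 and 74 counts in WT, which is 65.4 and 68.0 CPM in wtsP2 and 31.2 and 97.1 CPM in WT. Both wtsP2 libraries lay between the WT libraries. It was at a log2 fold change of 0.06 ± 0.90 (SE; edgeR adjusted p = 0.999), and the sign turned with the scaling, to -0.022 with DESeq2's size factors and -0.085 on library totals alone. It also rested on the WT library used, at -0.54 without WT replicate 1 and 1.14 without WT replicate 2. A difference of Mtp in either direction was thus not detectable here. Mtp counts came to 151% and 48.9% of apolpp counts in the wtsP2 libraries and to 2.32% and 11.1% in the WT libraries, with no overlap. Since apolpp lay below in wtsP2 while Mtp overlapped, this separation follows from the apolpp counts and is no added result on Mtp.

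The receptor gene LpR2 (FBgn0051092; chromosome 3R, 21524488 to 21566187, minus strand; 15 exons, 5055 bases) had 485 and 482 counts in wtsP2 and 143 and 36 counts in WT. That is 139 and 134 CPM in wtsP2, close to each other, and 69.7 and 47.2 CPM in WT. The groups did not overlap, with a log2 fold change of 1.22 ± 0.57 (SE; edgeR adjusted p = 0.506), a level 2.33-fold higher in wtsP2. It passed in 1 fit, without WT replicate 1 (1.54, adjusted p = 0.0208), where 31.5% of all genes were called higher in wtsP2. More than 10 reads fell in 7 and 10 of its 15 exons in the wtsP2 libraries and in 3 and 1 in the WT libraries.

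The neighbouring receptor gene LpR1 (FBgn0066101; chromosome 3R, 21567070 to 21586044, minus strand; 15 exons, 4403 bases) starts 882 bases beyond the end of LpR2 in these coordinates. It had 175 and 274 counts in wtsP2 and 65 and 28 counts in WT, or 50.2 and 76.4 CPM in wtsP2 and 31.7 and 36.7 CPM in WT. The groups did not overlap, but the log2 fold change of 0.89 ± 0.98 (SE; edgeR adjusted p = 0.929) was smaller than its error. Without wtsP2 replicate 2 it was 0.56, and without wtsP2 replicate 1 it was 1.19. Genes of the length class of both receptors had a median log2 fold change of 0.48, toward which LpR1 lay nearer than LpR2. Of its exons, 8 had more than 10 reads in each wtsP2 library and 1 in each WT library.

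Because LpR1 and LpR2 are paralogs, reads from sequence they share may have been split between them in a way the sources used here do not state, so their single values are uncertain. Their sum was 660 and 756 counts in wtsP2 and 208 and 64 counts in WT, or 189 and 211 CPM in wtsP2 and 101 and 84.0 CPM in WT. Fitted as 1 gene, the sum was at a log2 fold change of 1.11 ± 0.43 (edgeR adjusted p = 0.384). LpR1 made up 26.5% (95% exact binomial interval 23.2 to 30.1%) and 36.2% (32.8 to 39.8%) of the receptor counts in wtsP2 and 31.2% (25.0 to 38.0%) and 43.8% (31.4 to 56.7%) in WT. These intervals cover counting error only. The groups overlapped on this share, and the wtsP2 libraries differed from each other beyond counting error, so no difference in the balance of the receptors between genotypes was detectable. No other feature of the count files overlapped any of the 5 genes.

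By level per length, apolpp stood near the foot of the order in wtsP2 and at its head in WT. In both wtsP2 libraries the order from high to low was LpR2 (27.6 and 25.2 RPKM), Mtp (22.6 and 22.2 RPKM), LpR1 (11.4 and 16.4 RPKM), apolpp (4.23 and 12.8 RPKM) and Apoltp (0 and 0.36 RPKM). In both WT libraries apolpp came first (129 and 94.1 RPKM), LpR1 last but for Apoltp (7.09 and 9.24 RPKM) and Apoltp last (2.28 and 3.28 RPKM). LpR2 (13.6 and 10.4 RPKM) and Mtp (10.6 and 37.1 RPKM) held the places between them. Of neighbours in these orders, LpR1 and apolpp overlapped in wtsP2, as did LpR2 and Mtp in WT, and the others did not overlap in the libraries of their group.

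**Figure D2:**
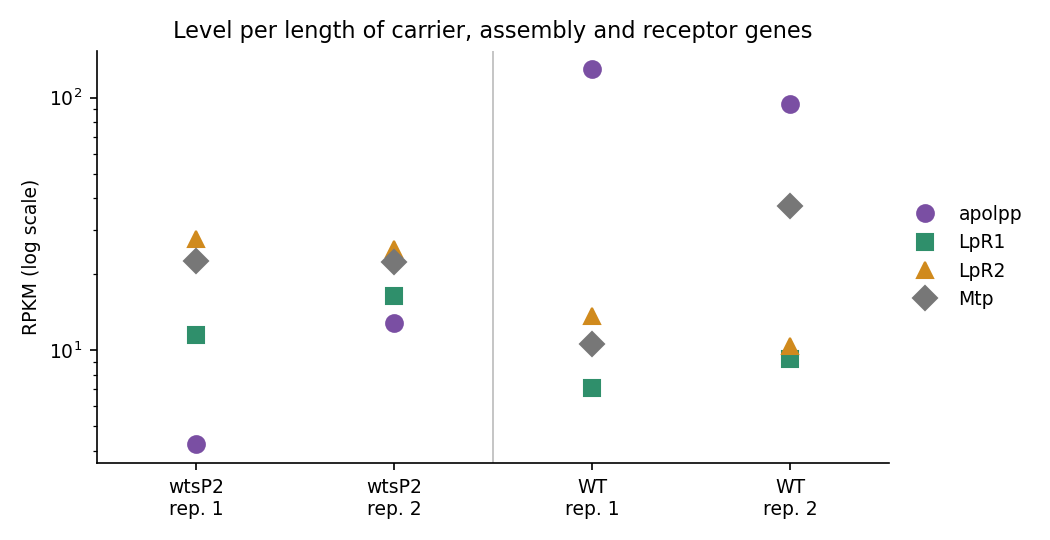
Level per length (deposited RPKM, log scale) of apolpp, LpR1, LpR2 and Mtp in each library, wtsP2 libraries left of the grey line and WT libraries right of it; Apoltp, at 0 in wtsP2 replicate 1, is left out. apolpp is the lowest of the 4 genes in both wtsP2 libraries (4.23 and 12.8 RPKM) and the highest in both WT libraries (129 and 94.1 RPKM).

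The ratio of carrier to receptor within a library needs no scaling between libraries. The apolpp count was 0.229 and 0.660 times the summed LpR1 and LpR2 counts in wtsP2 and 13.3 and 10.4 times that sum in WT. On the log2 scale, with 0.5 added to each count, the ratio averaged -1.36 ± 1.08 in wtsP2 and 3.55 ± 0.26 in WT (SD, n = 2 each), a difference of -4.91. Per length, by RPKM, the ratio was 0.108 and 0.308 in wtsP2 and 6.25 and 4.80 in WT. The groups did not overlap on any of these scales, which all rest on the same counts. Since apolpp lay below and both receptors above in wtsP2, the separation of their ratio follows and is no added result. No p is given for this ratio, since its members were chosen together.

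Markers of the fat body were lower in wtsP2 as apolpp and Apoltp were. The fat body list held 6 genes: the larval serum protein genes Lsp1alpha, Lsp1beta, Lsp1gamma and Lsp2 and the fat body protein genes Fbp1 and Fbp2. All were counted in every library. For 6 of 6 both wtsP2 libraries lay below both WT libraries, against 15.1% of all tested genes. The 6 markers summed to 853 and 1238 CPM in wtsP2 and to 18601 and 17136 CPM in WT. Their median log2 fold change was -4.42, against -3.60 for apolpp and 0.24 for all tested genes. Of the 6, 0 passed over all genes in edgeR. At an unadjusted p under 0.05, 6 were lower, against 2.65% of all tested genes. DESeq2 called 6 of them lower (1.17% of genes) and limma-voom 5 (0.371%). Without wtsP2 replicate 2 the median was -5.28. Within a library, apolpp counts came to 5.07% and 11.2% of the summed fat body marker counts in wtsP2 and to 7.23% and 5.09% in WT. On this ratio the groups overlapped, and wtsP2 replicate 2 was the highest library. Most of the summed counts came from Lsp1beta, Lsp1gamma and Lsp2 in every library. Set against Fbp2 or Lsp1alpha alone, apolpp counts lay apart between the groups, higher in wtsP2. Against each of the other markers alone they overlapped.

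Single markers lay both nearer to 0 and further from it than apolpp. Lsp2 was at a log2 fold change of -3.34 ± 0.35 (1125 and 1349 counts in wtsP2, 7739 and 2531 in WT), and Lsp1beta at -3.80 ± 0.48 (597 and 1159 counts in wtsP2, 7728 and 2380 in WT). Lsp1gamma was at -4.41 ± 0.37 and Fbp1 at -4.43 ± 0.93. Fbp2 was at -6.41 ± 0.54 (21 and 34 counts in wtsP2, 1627 and 405 in WT) and Lsp1alpha at -8.64 ± 0.78 (3 and 12 counts in wtsP2, 1996 and 576 in WT). The Lsp1 genes are paralogs and may share reads, so their single values are uncertain. Fbp1 had 104 and 555 counts in wtsP2 and 2881 and 1976 in WT.

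Markers of other tissues also summed to less in wtsP2. The 9 haemocyte (blood cell) genes summed to 172 and 257 CPM in wtsP2 and to 824 and 809 CPM in WT. Of the 7 tested, 0 passed over all genes in edgeR. At an unadjusted p under 0.05, 4 were lower, against 2.65% of all tested genes. DESeq2 called 4 lower (1.17% of genes) and limma-voom 1 (0.371%). For 4 of the 7 (PPO1, PPO2, srp and NimC2) both wtsP2 libraries lay below both WT libraries, against 15.1% of all tested genes. The prophenoloxidase gene PPO1 was at a log2 fold change of -4.69 ± 0.82 and PPO2 at -3.18 ± 0.68, while Hml, for haemolectin, was at -0.28 ± 0.63. Pxn was at -0.31 ± 0.84 and eater at -0.31 ± 2.15, and the groups overlapped for both, as for Hml. The GATA factor gene srp, which is active in fat body as well as in blood cells, was at -5.75 ± 1.48. The median of the 7 was -3.18, or -4.62 without wtsP2 replicate 2. The 6 salivary gland genes summed to 0.573 and 1.39 CPM in wtsP2 and to 468 and 367 CPM in WT, with 4 and 5 of them at 0 in wtsP2 and 1 and 2 in WT. Of the 2 that were tested, 0 passed in edgeR and both were lower at an unadjusted p under 0.05 (2.65% of all tested genes). Both were called lower in DESeq2 (1.17% of genes) and limma-voom (0.371%). Sgs3 had 1 and 5 counts in wtsP2 and 427 and 91 in WT, and Eig71Ee had none in wtsP2 and 282 and 115 counts in WT. Their part in the apolpp and Apoltp values was not tested.

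**Figure D3:**
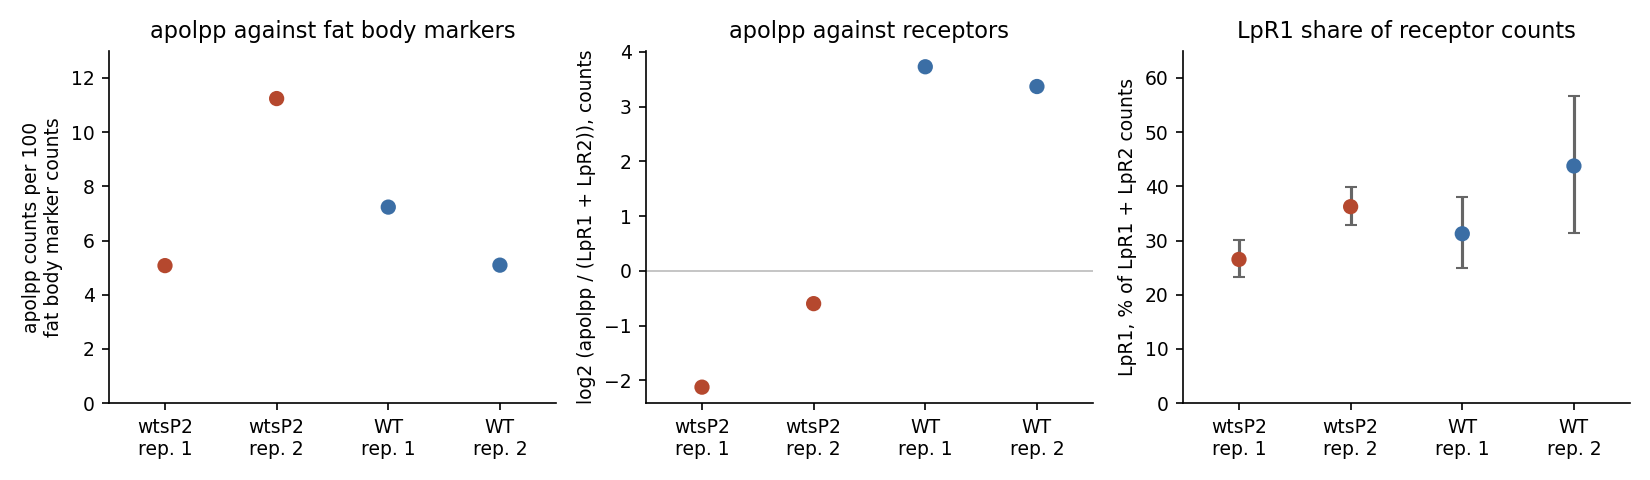
Ratios within each library, wtsP2 in red and WT in blue: apolpp counts as a percentage of the summed counts of 6 fat body markers (left), log2 of apolpp counts over the summed LpR1 and LpR2 counts (middle), and LpR1 as a percentage of receptor counts with 95% exact binomial intervals (right). The groups overlap in the left and right panels and lie apart in the middle one, at -2.12 and -0.60 in wtsP2 and 3.73 and 3.37 in WT.

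The genes whose pattern over the 4 libraries was nearest to that of a member were ranked by the root mean square difference of centred log2 CPM over 7277 other tested genes. Nearest to apolpp were Lsp1beta (0.30), Hsp67Ba (0.42), yip7 (0.43), nAChRbeta3 (0.43) and the tRNA gene tRNA:Lys-TTT-1-1 (0.44). In wtsP2, yip7 had 0 and 13 counts, nAChRbeta3 0 and 10 and the tRNA gene 0 and 10. Apoltp ranked at place 11, Lsp2 at 12, Lsp1gamma at 16 and Fbp1 at 33. Fbp2 ranked at 243 and Lsp1alpha at 3003, both with larger differences between the groups than apolpp. Where wtsP2 replicate 1 was at 0, as also for Apoltp, the place depends on the prior count of 2 in log2 CPM. Mtp, LpR1 and LpR2 ranked at 2892, 3268 and 3860. Nearest to LpR1 were eIF3a (0.03), BEAF-32 (0.05), Dora (0.06), Cht10 (0.07) and trn (0.08), and nearest to LpR2 were CG10286 (0.03), lbk (0.06), mab-21 (0.07), stg (0.08) and pyd (0.08). With 4 libraries many genes come close to any pattern, and these places are a description of these libraries.

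The other LDL receptor family genes on the fixed list did not pass the test in edgeR. Of 7 genes 5 were tested and 0 passed over all genes in edgeR. At an unadjusted p under 0.05, 1 of them (arr) was higher, against 9.91% of all tested genes. DESeq2 also called arr higher, as it did 1.3% of genes, and limma-voom called 0 of the list. Positive log2 fold changes were found for 4 of the 5, as for 4221 of the 7278 tested genes. For 3 of the 5 both wtsP2 libraries lay above both WT libraries, against 32.3% of all tested genes, and the median was 0.95 against 0.24 for all tested genes. The Wingless co-receptor gene arr had 2381 and 3137 counts in wtsP2 and 505 and 207 in WT, at 1.59 ± 0.36 (edgeR adjusted p = 0.368). The megalin gene mgl, the highest of the list in CPM, had 3392 and 5826 counts in wtsP2 and 914 and 690 in WT, at 0.95 ± 0.50, and cue was at 2.38 ± 1.19 (282 and 320 counts in wtsP2, 55 and 4 in WT). LRP1, an endocytic receptor gene, was at 0.30 ± 0.54 with overlapping groups (1220 and 2213 counts in wtsP2, 506 and 414 in WT). The 1 negative value was that of boca, at -1.24 ± 1.08 (105 and 95 counts in wtsP2, 198 and 28 in WT). Its product is not a receptor but a chaperone that brings receptors of this family to the cell surface. The counts and medians of the list include boca. The oocyte receptor gene yl had 31 counts in WT replicate 2 and none elsewhere, and Lrp4 had none in any library. The median of the list depended on single libraries, at 0.18 without WT replicate 1, 1.58 without WT replicate 2 and 0.19 without wtsP2 replicate 2.

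Genes for clathrin-mediated uptake, through which receptors of this family enter the cell, lay around the median of all genes. All 15 on the list were tested, and 0 passed over all genes in edgeR, at an unadjusted p under 0.05, in DESeq2 or in limma-voom. Of the 15, 10 had positive values and the median log2 fold change was 0.13. The clathrin heavy chain gene Chc, the highest of them in CPM, was at 0.55 ± 0.32 (4524 and 4546 counts in wtsP2, 1708 and 698 in WT). Rab11, for a small GTPase of the recycling endosome, was at -1.08 ± 0.50 (616 and 303 counts in wtsP2, 554 and 215 in WT), and the endosomal gene Rbsn-5 at 2.82 ± 2.06 with few counts (26 and 69 in wtsP2, 7 and 0 in WT).

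Genes of lipid synthesis and storage went both ways. Of 19 listed genes 18 had a row and 14 were tested, with 0 passing over all genes in edgeR, DESeq2 or limma-voom. At an unadjusted p under 0.05, 1 (Lsd-2) was higher, against 9.91% of all tested genes. There were 6 positive and 8 negative values, with a median log2 fold change of -0.11 (0.75 without WT replicate 2). Lsd-2, for the perilipin that coats lipid droplets in many tissues, was at 1.55 ± 0.39 (1071 and 1437 counts in wtsP2, 234 and 97 in WT; edgeR adjusted p = 0.368). The diacylglycerol acyltransferase gene mdy was at 1.65 ± 0.69 (373 and 455 counts in wtsP2, 88 and 24 in WT). The desaturase gene Desat1, the highest of the list in CPM, was at -0.64 ± 0.44 (1797 and 1005 counts in wtsP2, 1099 and 536 in WT).

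Other lipid carriers and sterol transport genes were sparsely counted. Of 19 genes 9 were tested, and 0 passed over all genes in edgeR, DESeq2 or limma-voom. At an unadjusted p under 0.05, 1 (Nplp2) was lower, against 2.65% of all tested genes. Of the 9, 4 had positive and 5 negative values, and the median log2 fold change was -0.42 (0.97 without WT replicate 1). Nplp2, which encodes a small protein described as an exchangeable apolipoprotein, was at -3.74 ± 1.45 (28 and 11 counts in wtsP2, 237 and 26 in WT; edgeR adjusted p = 0.388). The sterol-binding protein gene Npc2g was at -3.62 ± 2.78 (0 and 18 counts in wtsP2, 22 and 40 in WT), and the sterol transporter gene Npc1a at 1.37 ± 1.27 (680 and 646 counts in wtsP2, 282 and 4 in WT). Pdi, for protein disulfide isomerase, which in vertebrates is the partner of the microsomal transfer protein, was the highest of the list in CPM, at 0.35 ± 0.34 (4775 and 6150 counts in wtsP2, 2273 and 1000 in WT).

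**Figure D4:**
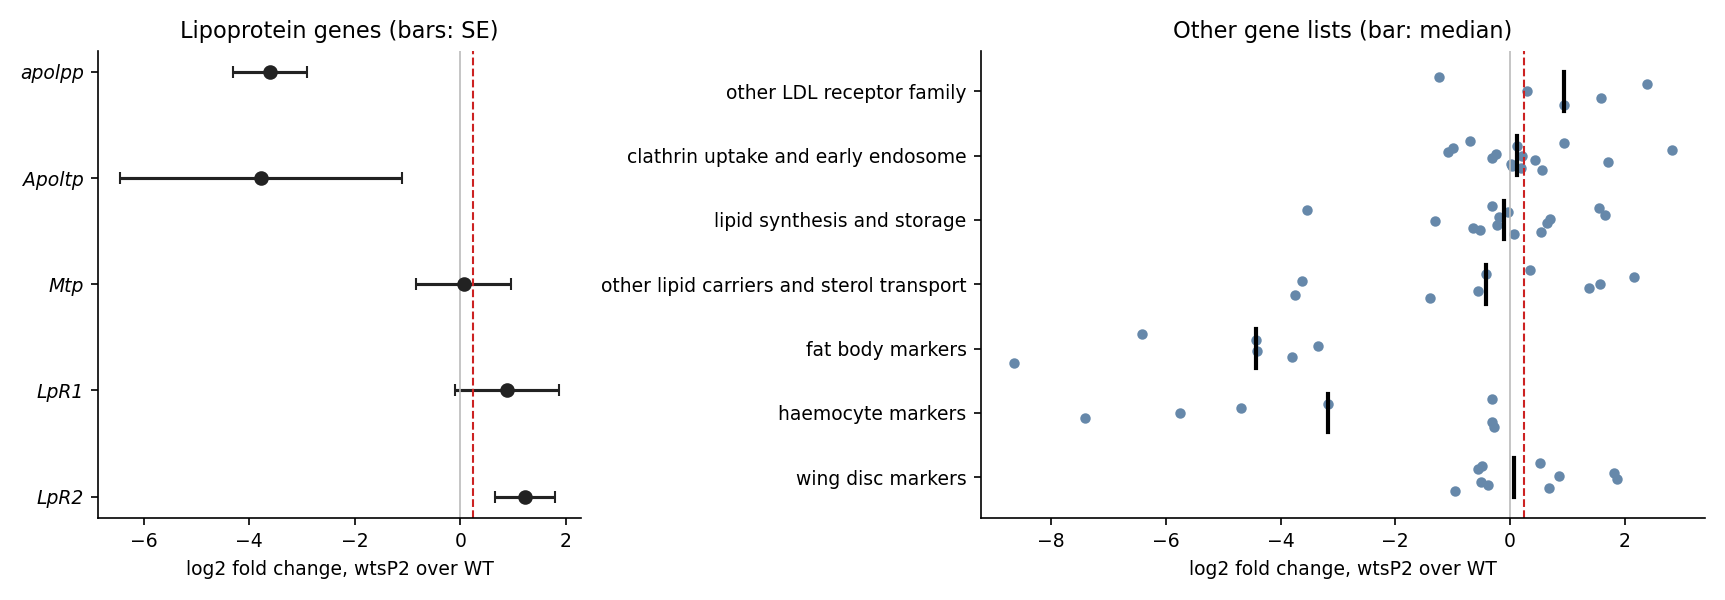
Log2 fold changes, wtsP2 over WT, of the 5 lipoprotein genes with their SE (left) and of the tested genes of 7 other lists, 1 point a gene, with the median as a black bar (right); the red dashed line is the median of all tested genes (0.24). apolpp (-3.60) and Apoltp (-3.77) lie in the range of the fat body markers, whose median is -4.42. LpR1 (0.89) and LpR2 (1.22) lie near the median of the other LDL receptor family list (0.95), which includes the chaperone gene boca.

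A second counting of the same libraries stands behind the authors' deposited table of group means. There apolpp averaged 181 normalized counts in wtsP2 and 2386 in WT, a ratio of 0.0758, and Apoltp 7.86 in wtsP2 and 76.3 in WT, a ratio of 0.103. The authors' deposited table gave ratios of 0.988 for Mtp, 1.90 for LpR1 and 1.69 for LpR2. Each mean could be split into whole counts of its 2 libraries, which are not numbered there. For Mtp the split held 244 and 228 counts in wtsP2 and 64 and 74 in WT. The count files hold 228 and 244 counts in wtsP2 replicates 1 and 2, and 64 and 74 in WT. On that match, the values below are in the order of replicates 1 and 2. For LpR2 the split gave 899 and 913 counts in wtsP2 and 166 and 157 counts in WT. The count files hold 485 and 482 in wtsP2 and 143 and 36 in WT. For LpR1 the split gave 271 and 441 counts in wtsP2 and 122 and 29 in WT. The count files hold 175 and 274 in wtsP2 and 65 and 28 in WT. The countings thus disagree on the receptor genes, and the cause was not tested. For LpR2 the smaller WT library thereby stood at 418 normalized counts against 176 in the other. In wtsP2 the libraries stood at 510 and 495 normalized counts, still above both. For apolpp the split gave 169 and 490 counts in wtsP2 and 2822 and 667 in WT, close to the values of the count files. For Apoltp it gave 0 and 29 in wtsP2 and 66 and 31 in WT. Fitted in edgeR, these counts put apolpp at a log2 fold change of -3.60, LpR1 at 1.04 and LpR2 at 0.90, and the groups stayed apart for each of these 3 genes. The log2 ratio of apolpp to the summed receptor counts was -2.79 and -1.47 in wtsP2 here. In WT it was 3.29 and 1.84, further apart than in the count files.

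**Figure D5:**
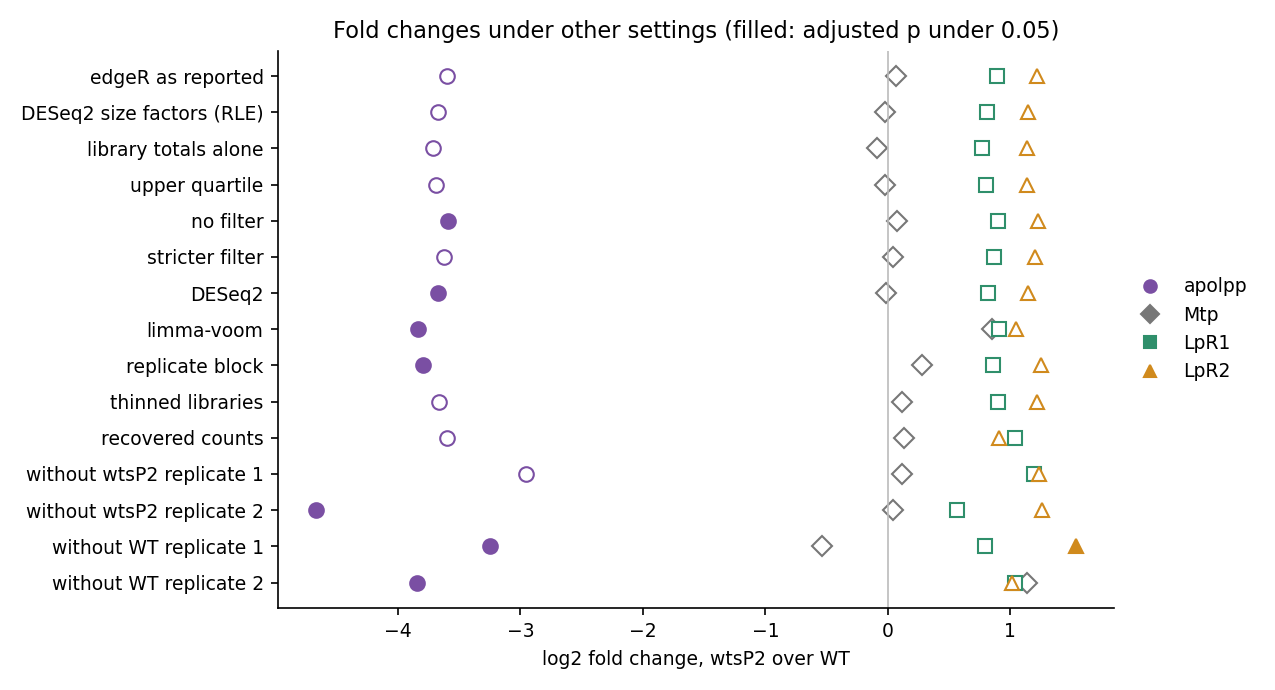
Log2 fold changes, wtsP2 over WT, of apolpp, Mtp, LpR1 and LpR2 under the reported edgeR fit and 14 alternatives; filled symbols have an adjusted p under 0.05 over all genes of that fit, open symbols do not. apolpp stays between -4.67 and -2.96 and is filled in 7 alternatives, LpR2 is filled in 1, and Mtp lies on both sides of 0.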

How the data were processed

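Libraries were made from total RNA with a SOLiD kit, per the labels. The submitters' processing notes name HTSeq, DESeq and the builds BDGP5 and dm3. Neither aligner nor strand setting is given in the sources used here. For each library the authors deposited raw read counts, gene lengths and RPKM, the last used here only to set genes of different length side by side. A joint table gives, per the file headers, DESeq's group means, a signal made of counts over size factors, and their fold ratio.

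Symbols came from the reference annotation by gene identifier (14347 features) or by transcript identifier (419). No coordinates were taken from it, and no sequence is shown.

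The main test was edgeR's quasi-likelihood test (edgeR 4.0.16, R 4.3.3, filterByExpr, TMM, robust). Its p-values were adjusted by Benjamini-Hochberg over 7278 genes, with a threshold of 0.05. Each SE is the size of the log2 fold change divided by the root of its F statistic. Alternatives were other scalings and filters, libraries thinned to 696952 counts, DESeq2 1.42.0, limma-voom (3.58.1), a replicate block, LpR1 and LpR2 summed, and each library left out. Counts recovered from the group means (relative tolerance 1e-08) were added after seeing the data. The procedure was run on simulated counts, and its rate of recovery there is not given here. The members and 8 gene lists were chosen with earlier results of these data known. Genes named were the members, the fat body markers, of each other list the 3 with the smallest adjusted p and the highest in CPM, and the 5 nearest in pattern to apolpp, LpR1 and LpR2. Others (pnr, NimC2, Pxn, eater, yl, Lrp4, boca, LRP1, Lsd-1) were named after their values were seen. Log2 CPM used a prior count of 2.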

Additional observations from a re-analysis of the deposited data

How the results depend on the processing

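Apoltp and LpR1 kept their sign and stayed outside the threshold in every alternative run. apolpp kept its sign and passed without a filter (-3.59, adjusted p = 0.0136), in DESeq2 (-3.67), in limma-voom (-3.83) and with the replicate block (-3.80), and ran from -4.67 to -2.96 with a library left out. LpR2 ran from 1.01 to 1.54 with a library left out and passed without WT replicate 1. Mtp turned to -0.022, -0.085 and -0.027 with DESeq2's size factors, library totals and upper quartile scaling, to -0.017 in DESeq2, and ran from -0.54 to 1.14 with a library left out. Without wtsP2 replicate 2, Apoltp has no wtsP2 counts, so its fitted value there is no bound. The cause of these differences was not tested.

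Genes called higher and lower numbered 21 and 16 without a filter, 96 and 86 in DESeq2, 123 and 27 in limma-voom and 69 and 38 with the replicate block. With a library left out they ran from 3 to 2514 higher and from 14 to 681 lower. The deviations of same-numbered libraries from their group means correlated at 0.00801. This correlation cannot decide whether same-numbered libraries were handled together, since the WT libraries differed in depth and in zeros. The biological coefficient of variation was 92.8%. It was 59.5% and 59.4% without WT replicates 1 and 2, and 128% without either wtsP2 replicate.

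List medians with a library left out ran from 0.18 to 1.58 (other LDL receptor family), -1.20 to 0.97 (other carriers), -0.16 to 0.75 (lipid synthesis), -5.28 to -3.97 (fat body), -4.62 to -3.17 (haemocyte) and -0.11 to 0.30 (wing disc). The carrier list was at 0.86 with the replicate block and 0.57 in thinned libraries, lipid synthesis at 0.49 in limma-voom, and haemocyte genes at -3.86 in DESeq2 and -4.01 in thinned libraries. With 2 tested members, the salivary gland list was given no median. The limit that a count of 0 allows, 3 counts, is 0.860 and 0.836 CPM in wtsP2 and 1.46 and 3.94 CPM in WT.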

Other observations

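The perilipin genes of the lipid storage list, set side by side after their values were seen, lay on opposite sides of 0. Lsd-1, for the perilipin best known from fat body lipid droplets, had 13 and 13 counts in wtsP2 and 177 and 0 in WT, at a log2 fold change of -3.54 ± 2.74 (edgeR adjusted p = 0.808). Its WT counts came from 1 library, and the groups overlapped. Lsd-2 lay higher in both wtsP2 libraries, at 1.55 ± 0.39 (edgeR adjusted p = 0.368). The difference between these genes was not tested.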
